A study of Mus musculus with 2 samples.

Results

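The Sox genes encode transcription factors that share an HMG box, the DNA-binding domain first described in the sex-determining gene Sry. They are sorted into lettered groups by the likeness of that box, and 9 of them, spread over groups B1 (Sox2), C (Sox4, Sox11), D (Sox5, Sox6), E (Sox9) and F (Sox7, Sox17, Sox18), are followed here. In the developing lung, Sox2 marks the epithelium of the conducting airways, Sox9 marks the growing epithelial tips and the cartilage of the larger airways, and the group F factors are known from blood vessel and lymphatic endothelium. Sox4 and Sox11 are active in many immature cells of the embryo, and Sox5 and Sox6 act beside Sox9 in cartilage.

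The values come from 1 oligonucleotide array, read in 2 colours, that compared lung lobes of 2 male mouse embryos at E16.5, with tissue outside the lobes removed. Some labels call the source lung epithelium, but genes of blood vessels were all measured. Both embryos carried the Foxj1lacZ allele on a mixed Sv129/CD-1 background, 1 as a heterozygote (Foxj1 +/–, Cy3, green) and its litter mate as a homozygote (Foxj1 –/–, Cy5, red), so no lung without the allele was measured. Foxj1 is the forkhead factor that drives formation of motile cilia, and the series asks for genes that act under it. Its probe read a log2 level of 9.53 in the heterozygous and 7.61 in the homozygous channel, a ratio of −1.92 ± 0.30, in the direction of the labels. Whether that probe lies in the replaced part of the gene was not settled. With 1 lung per genotype and no dye swap, genotype, embryo and dye cannot be told apart, and no difference below has a replicate check or a test. In bulk lung, fewer cells of a type and less RNA per cell cannot be told apart either.

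The members were found by gene name, or by the present symbol of the transcript accession, among the array's probes for mouse transcripts. All 9 genes were present, on 26 probes, out of 21172 genes that stood above background in at least 1 channel. Every member passed that filter through at least 1 probe. Of the 26 probes, 18 were well above background in both channels, 2 in the homozygous channel only, and 6 in neither, which leaves the 6 without a usable value.

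Probes whose letters read as protein-coding sequence, an assignment made without an annotation of mm8, show what the array reads for the related members. Those of Sox9 and Sox11 below both come from the stretch that encodes the HMG box, and they are the most alike of all 287 pairs of probes from different members. In an overlap without gaps of 39 bases, 29 were identical, and these are in capitals. The Sox9 probe is given at chr11:112599086-112599938 on the plus strand of mm8, a span of 853 bases for an oligonucleotide of 60, so it bridges a gap in the genome. The Sox11 probe is at chr12:27928353-27928412 on the minus strand.
Sox9: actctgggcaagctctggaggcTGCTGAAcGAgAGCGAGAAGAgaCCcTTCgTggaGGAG
Sox11: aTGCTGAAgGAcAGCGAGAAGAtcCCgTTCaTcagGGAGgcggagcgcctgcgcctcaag

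The next most alike pair, one probe of Sox11 and one of Sox6, matched at 52.3% of an overlap of 44 bases. No pair shared a run of 12 identical bases, and the longest run was 10. The coding probes of Sox4 (chr13:28959662-28959721, minus strand) and Sox17 (chr1:4481890-4481949, minus strand) are printed because the first gives the Sox4 value and the second the middle of the 3 usable Sox17 values. Both are free of stop codons in 2 of the 3 forward frames, as are the pair above.
Sox4: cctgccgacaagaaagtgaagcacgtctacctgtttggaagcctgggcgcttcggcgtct
Sox17: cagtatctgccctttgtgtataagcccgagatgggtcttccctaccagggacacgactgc

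The log2 ratios of the 9 Sox genes, homozygous over heterozygous, ran from −0.11 (Sox18) to 0.31 (Sox11). Their median was 0.15, against −0.0027 for all genes. Sox2, Sox4, Sox9 and Sox11 each had a higher ratio than at least 86.2% of all genes. The airway, tip and immature-cell factors Sox2, Sox4, Sox9 and Sox11 stood between 0.25 and 0.31, and the cartilage partners Sox5 and Sox6 between 0.09 and 0.15. The place of Sox6 depends on the processing. In the log ratio that the scanner software wrote, Sox6 was at 0.37, Sox5 at 0.15 and the first 4 between 0.28 and 0.46. The vessel factors Sox7, Sox17 and Sox18 lay between −0.11 and 0.02. All 3 turn clearly positive when the ratios are centred on their median alone (0.37 to 0.52). Genes of log2 intensity 9.57 to 12.6, a range that holds these 3, then have a median of 0.52. The largest member difference was 1.24-fold. Of the 9, 0 differed by 2-fold or more, against 1.88% of all genes on the lower side and 0.576% on the higher side, and 0 by 1.5-fold or more, against 5.87% lower and 2.1% higher. At these shares, 9 genes without a call are near the background and are no result about the Sox family. A ratio between the lowest and the highest member was found for 56.2% of all genes.

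An error is given after each ratio. It is the scanner software's error of its own log ratio on the log2 scale, which covers spot and channel noise but no difference between embryos. Its lowest value on the array was 0.20. Between probes of the same gene the log2 ratio had an SD of 0.27 over 7143 genes, and between repeated spots of a probe 0.058 over 214 probes. A member ratio as reported was larger than its scanner error for 4 genes, Sox2, Sox4, Sox9 and Sox11, and smaller for the other 5. Of the 4, only Sox11 also exceeded the SD between probes of a gene. The error belongs to the scanner's own log ratio, which the normalisation used here does not share. In that log ratio Sox6, at 0.37, was larger than its error of 0.23 as well.

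**Figure D1:**
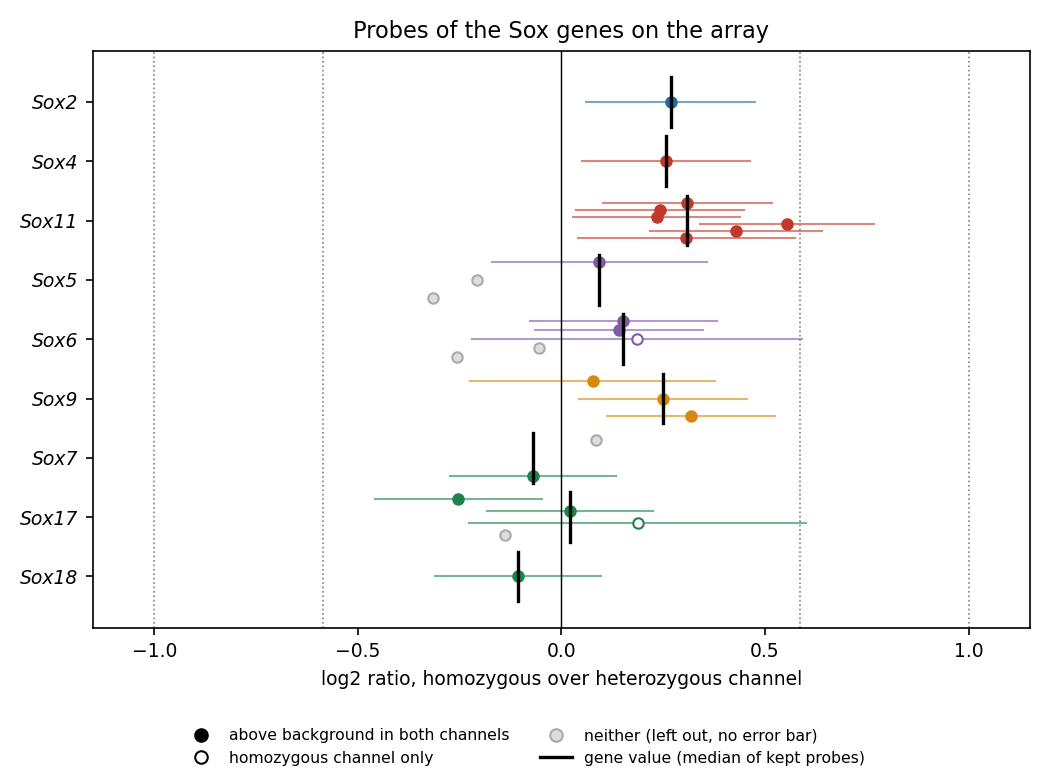
Log2 ratio of homozygous over heterozygous for each of the 26 probes of the 9 Sox genes, with the gene value as a black line. Filled points were above background in both channels, open points in the homozygous channel only and grey points in neither, and horizontal bars give the scanner error of the 20 probes kept. Dotted lines mark 1.5-fold and 2-fold in either direction. No point passes the 1.5-fold lines, and the 6 probes of Sox11 all lie above 0 while those of Sox17 lie on both sides.

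Sox2, the factor of the conducting airways, is needed for the airway epithelium to form its secretory, ciliated and basal cells. Its single probe (NM_011443, chr3:34843400-34843459, plus strand) had a log2 level of 9.43 in the heterozygous and 9.70 in the homozygous channel. A level here is log2 of the background-corrected and normalised intensity, and levels of different probes cannot be set against each other. The homozygous lung was the higher, with a log2 ratio of 0.27 ± 0.21. Of all genes, 87.6% had a lower ratio. Sox2 lies within the gene of the noncoding RNA Sox2ot, for which 1 of 3 probes was above background, in the homozygous channel only, at levels of 6.72 and 6.76.

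Products of the airway cells in which Sox2 is found stood far from this value. All 13 genes of the conducting airway list, which holds basal, secretory and neuroendocrine genes, had ratios below 0, with a median of −1.18, and 7 were at least 2-fold lower, 0 higher. With median centring, whose effect on the whole array is given at the end, 10 of the 13 stayed below 0 and 3 were at least 2-fold lower, with a median of −0.50. The secretoglobins Scgb3a1 (−3.19 ± 0.38) and Scgb1a1 (−2.47 ± 0.31) were the lowest, while the basal cell factor Trp63 (−0.10 ± 0.26) was among those nearest to 0. The 8 genes of the motile cilia list were all at least 2-fold lower, from −3.01 (Meig1) to −1.37 (Tekt1), or 7 of 8 with median centring. Sox2 was thus higher by a small amount in the same channel in which these airway products were lower. The part of airway cell content in the Sox2 value was not tested.

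Sox9 keeps the epithelial tips in a branching, undifferentiated state and is the main regulator of cartilage. It was the best measured member, because 1 of its 3 probes was printed 10 times (NM_011448, chr11:112603585-112603644, plus strand). Over these 10 spots the heterozygous log2 level ran from 11.8 to 12.2 with a median of 11.98, and the homozygous level from 12.1 to 12.5 with a median of 12.30. The 2 ranges overlap because spots differ in brightness, but within each spot the homozygous channel was the higher. The log2 ratio lay between 0.27 and 0.36 with a mean of 0.32 ± 0.027 (SD of 10 spots of 1 array), a 1.25-fold difference. This spread is that of spots that share both RNA samples, and it says nothing of other embryos.

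The second Sox9 probe, at chr11:112601784-112601843, had levels of 11.54 and 11.79 and a ratio of 0.25 ± 0.21. The HMG box probe printed above had levels of 6.90 and 6.98 and a ratio of 0.08 ± 0.30. Its error was the largest of the 3, and all 3 lay on the same side of 0. With median centring they did not, since the HMG box probe stood at −0.15 and the other 2 at 0.82 and 0.90. The gene value, the median of the 3 ratios as reported, was 0.25 ± 0.21, or 1.19-fold higher in the homozygous channel. Of all genes, 86.2% had a lower ratio.

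The distal tip list holds signalling genes and transcription factors of the growing tips. Of its 12 genes, 9 had ratios above 0, the median was 0.11, and 0 were 1.5-fold higher or lower. With median centring all 12 were above 0, the median was 0.64 and 7 were at least 1.5-fold higher. In that setting 4807 of 21172 genes on the array were 1.5-fold higher too, and all genes of log2 intensity 9.57 to 12.6 had a median of 0.52. The Ets factor Etv4 (0.54 ± 0.21) and the proto-oncogene Mycn (0.48 ± 0.23) were the highest, the receptor Fgfr2 (−0.23 ± 0.21) and the factor Gata6 (−0.05 ± 0.21) the lowest. Without median centring, 49.6% of all genes had a ratio above 0.

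Sox5 and Sox6 lack an activation domain of their own and bind beside Sox9 on the genes of cartilage matrix. Sox5 had 3 probes, of which 1 was above background (NM_011444, chr6:143790222-143790281, minus strand). It read 7.13 in the heterozygous and 7.22 in the homozygous channel, a ratio of 0.09 ± 0.26. The channels differed by less than the error. A further probe, under the older name A730017D01Rik, which the gene table lists as a synonym of Sox5, was not a member by the rule. It was looked up after the members' values were seen and read 0.14 ± 0.21.

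Sox6 had 5 probes on the minus strand of chromosome 7, 4 of them designed to NM_011445. The probes at chr7:115263053-115263112 (levels 7.52 and 7.67) and at chr7:115266015-115266074 (9.37 and 9.52) were above background in both channels, with ratios of 0.15 ± 0.23 and 0.14 ± 0.21. The probe at chr7:115268127-115268186 was above background in the homozygous channel only, where it was 1.14-fold brighter, or at a ratio of −0.11 with median centring. A lower bound for such a probe sets the brighter channel against the higher of the dim channel's own value and the lowest level well above background there. Here the dim channel's own value was the higher, so the bound is no more than the ratio itself. As reported, that ratio is smaller than the scanner error of 0.41, while the scanner's own log ratio was 0.45. The 2 probes measured in both channels differed by less than their errors as reported, and the gene value was 0.15 ± 0.23. The scanner's own log ratios of these 2 were 0.37, larger than the error, and 0.19, smaller than it. The remaining 2 were in neither channel above background. The antisense gene Sox6os, on the opposite strand, was at 0.39 ± 0.22 with levels of 7.92 and 8.31.

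Matrix genes that Sox5, Sox6 and Sox9 are known to switch on in cartilage were found in these lobes, although tissue outside the lobes had been removed. Of 16 listed genes, 15 stood above background, 14 of them in both channels, with a median of 0.01. Above 0 lay 8 and below 0 lay 7, and 3 were at least 1.5-fold lower, Scrg1 (−0.94 ± 0.25), Chad (−0.73 ± 0.22) and Matn4 (−0.61 ± 0.21), of which Matn4 is named for that count. With median centring Scrg1 (−0.90) kept that size, while Chad stood at −0.51 and Matn4 at −0.06. All genes of log2 intensity 9.57 to 12.6, a range that holds Matn4, then had a median of 0.52. In this setting 3 of the listed genes were 1.5-fold higher, as were 4807 of 21172 genes on the array. The matrilin Matn3 (0.30 ± 0.21) and the cartilage oligomeric protein gene Comp (0.17 ± 0.32) were the highest, and Matn1, a marker of tracheal cartilage, was in neither channel above background.

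Sox4 and Sox11 form group C with Sox12 and are known as survival and differentiation factors of immature cells, including mesenchyme and neurons. The Sox4 probe printed above (NM_009238) read 9.88 in the heterozygous and 10.14 in the homozygous channel. Its ratio was 0.26 ± 0.21, 1.19-fold higher in the homozygous lung.

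Sox11 had 6 probes (NM_009234 and 2 other transcript accessions), all on the minus strand of chromosome 12 and all above background in both channels. From the 5' end of the transcript onwards, the HMG box probe read 7.10 and 7.41, with a ratio of 0.31 ± 0.27. The probe at chr12:27926996-27927048 read 9.16 and 9.59 (0.43 ± 0.21), and that at chr12:27926786-27926845 read 9.24 and 9.79 (0.55 ± 0.21). The second of these had the highest ratio of all member probes, 1.47-fold. The 3 probes nearest the 3' end had ratios of 0.23, 0.24 and 0.31, the first at levels of 11.01 and 11.24, the second at 11.32 and 11.56 and the third at 10.54 and 10.85. In all 6 the homozygous channel was the brighter one. The gene value was 0.31 ± 0.21, 1.24-fold higher, and 90.4% of all genes had a lower ratio. Sox12, the remaining gene of group C and no member here, had the highest ratio of the other Sox genes, 0.24 ± 0.24.

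Sox11 and Sox2 are also expressed in neurons and Schwann cells. Of the 13 genes listed for these cells, 11 were above background, with a median of −0.07, 4 of them above 0 and 7 below. S100b (−1.10 ± 0.24, or −0.78 with median centring) and Stmn2 (−0.67 ± 0.42) were the lowest, and the neuronal tubulin Tubb3 (0.15 ± 0.21) was the highest. The receptor Ret was in neither channel above background. The part of nerve tissue in the Sox2 and Sox11 values was not tested.

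The group F factors are partners in endothelial identity and in the making of arteries and lymph vessels. Sox7 had 1 usable probe of 2 (NM_011446, chr14:62904692-62904751, plus strand), with levels of 12.32 in the heterozygous and 12.25 in the homozygous channel. The ratio was −0.07 ± 0.20. Sox18, with a single probe (NM_009236, chr2:181599490-181599549, minus strand), read 12.68 and 12.58, a ratio of −0.11 ± 0.20. Both differed between the channels by less than the scanner error.

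Among the members with several usable probes, Sox6, Sox9, Sox11 and Sox17, only Sox17 had ratios on both sides of 0. With median centring Sox6 and Sox9 had them too. The probe at chr1:4481503-4481562 read 12.99 in the heterozygous and 12.73 in the homozygous channel, a ratio of −0.25 ± 0.21, or 1.19-fold lower. The coding probe printed above, 5' of it, read 11.20 and 11.22 (0.02 ± 0.20). The probe at chr1:4485231-4485290 was above background in the homozygous channel only, at least 1.10-fold brighter, again with a larger error (0.41), but at a ratio of −0.13 with median centring. The scanner's own log ratio there was 0.60, larger than that error. These probes were designed to NM_011441. The probe with the lowest ratio was thus the one nearest the 3' end, and the gene value, 0.02 ± 0.21, was the middle of unlike probes. With probes above background in both channels alone it was −0.12. With median centring it was 0.37, the value of the probe at chr1:4481503-4481562, while the coding probe stood at 0.57. The last probe named Sox17 (chr1:4488752-4488811) lies on the plus strand, opposite to the other 3, comes from a cDNA clone, and was in neither channel above background.

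Endothelial genes had ratios near those of the group F factors. All 20 listed genes of blood vessels were above background in both channels, so the lobes held vessels as well as epithelium. Their median was −0.11, with 15 ratios below 0 and 5 above, and 1 was at least 1.5-fold lower. That was the arterial connexin Gja4 (−0.68 ± 0.21), followed by the VEGF receptor Kdr (−0.38 ± 0.21), while Erg (0.13 ± 0.51) and Tie1 (0.13 ± 0.20) were the highest. Erg was −0.03 with only the probe above background in both channels. With median centring 18 of the 20 genes were above 0, with a median of 0.39, and 4 were 1.5-fold higher, as were 4807 of 21172 genes on the array. Gja4 then stood at −0.10, no longer 1.5-fold lower, and Kdr at 0.34. All genes of log2 intensity 9.57 to 12.6, a range that holds Gja4, had a median of 0.52 in this setting, so Gja4 stayed below it. Of 6 lymphatic genes 5 were found on the array by name and all 5 were above background, with a median of −0.20, or 0.29 with median centring. The hyaluronan receptor Lyve1 (−0.34 ± 0.21) and Reln (−0.32 ± 0.21) were the lowest, and Nr2f2 (−0.17 ± 0.21) and the receptor Flt4 (0.38 ± 0.25) the highest. Prox1, which Sox18 is known to switch on in lymphatic cells, was at −0.20 ± 0.30 and was chosen after its value was seen. Heart and striated muscle genes, tissue that also holds endothelium, were unequal between the samples, with 6 of 8 at least 2-fold lower, or 5 of 8 with median centring, from Myl7 (−3.52 ± 0.39) and Csrp3 (−2.79 ± 0.37) to Nppa (−0.24 ± 0.33) and Actc1 (−0.07 ± 0.20). Their part in the group F values was not tested.

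**Figure D2:**
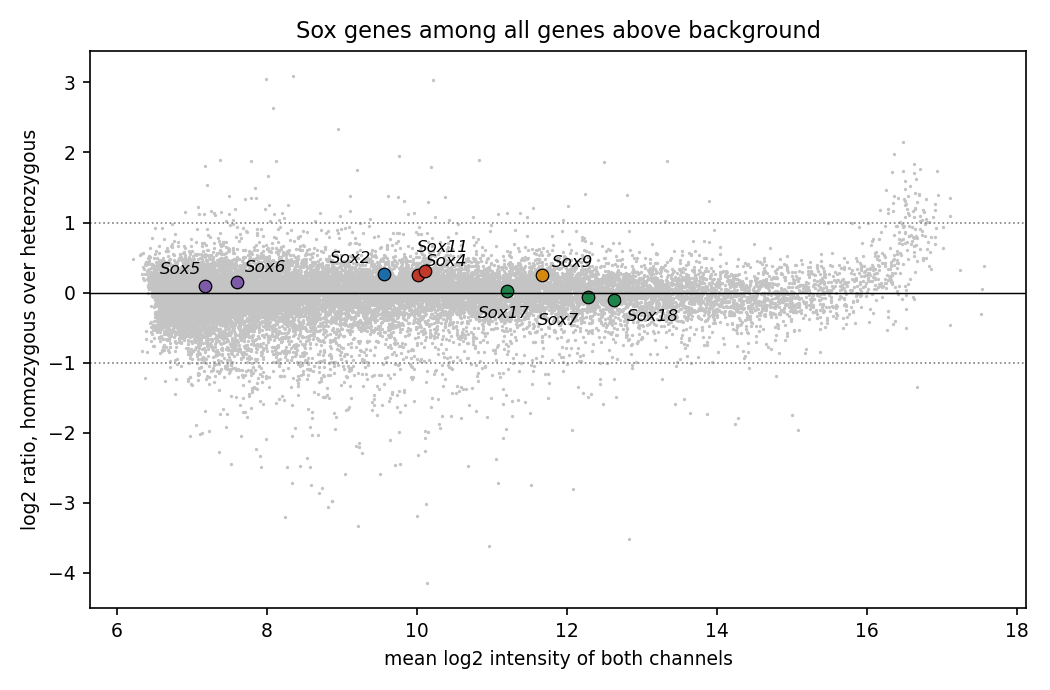
Each grey point is a gene above background, by its mean log2 intensity over both channels and its log2 ratio, and the coloured points are the 9 Sox genes. Dotted lines mark 2-fold. Sox5 and Sox6 lie in the dim range, the other 7 between 9.57 and 12.6, and all sit inside the main cloud.

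The other members of the family gave a background for the 9. Of 11 further Sox genes, 9 were above background, with a median of −0.06 and none 1.5-fold higher or lower. Sox10, the neural crest and Schwann cell factor, was lowest at −0.52 ± 0.21, followed by Sox15 at −0.47 ± 0.21. The Sox10 value rests on 1 usable probe, which is not of RefSeq accession, and was −0.33 without the filter on dim probes. With median centring Sox10 stood at −0.04 and Sox15 at 0.07. All genes of log2 intensity 9.57 to 12.6, a range that holds both, then had a median of 0.52, so both stayed below it. Sox13 (−0.12), Sox14 (−0.09), Sox21 (−0.06), Sox1 (−0.05) and Sox8 (−0.02) lay near 0, and Sox3 (0.17 ± 0.42) was above background in the homozygous channel only. Sox30 and Sry were in neither channel above background.

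**Figure D3:**
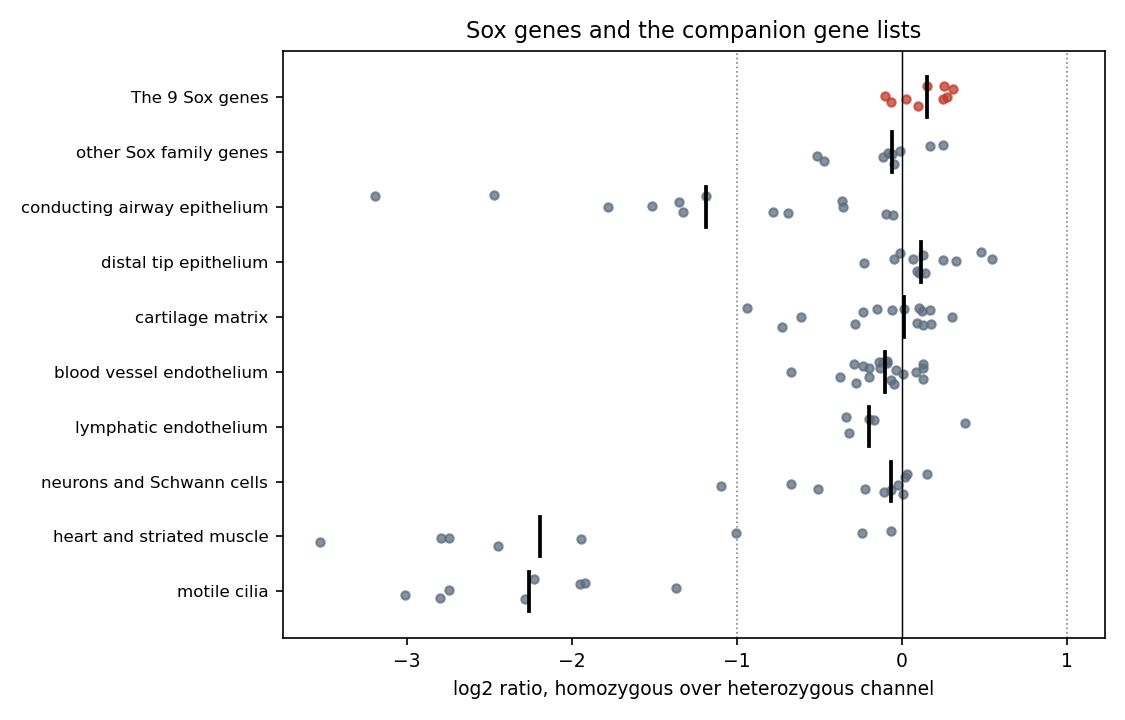
Log2 ratio of homozygous over heterozygous for the 9 Sox genes and for each gene list, with a point per gene above background and the median as a black line. Dotted lines mark 2-fold. The Sox genes lie between −0.11 and 0.31, while the airway, heart and motile cilia lists reach far below −1.

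The zero line of the ratios depends on how dye and intensity were corrected. With a single median shift for the whole array in place of the loess curve, which follows intensity, the median of all genes moved to 0.22, and that of the 6145 genes in the intensity range of the 7 brighter members moved to 0.52. Sox9 and Sox11 then stood at 0.82, Sox4 at 0.74, Sox2 at 0.70, Sox7 at 0.52, Sox18 at 0.50 and Sox17 at 0.37, so 4 members passed 1.5-fold, as did 4807 genes of the array on the higher side. Relative to the median of that range they were 0.30 (Sox9), 0.30 (Sox11), 0.22 (Sox4), 0.18 (Sox2), 0.0028 (Sox7), −0.02 (Sox18) and −0.15 (Sox17). The Sox17 value comes from another of its probes here than as reported, with levels of 12.99 and 12.73, above that range. Dimmer genes, of log2 intensity 7.18 to 7.60, had a median of −0.13 in this setting. Relative to it, Sox5 was at 0.08 and Sox6 at 0.27. Over the 11 alternatives Sox2, Sox4, Sox6, Sox9 and Sox11 had ratios above 0 in each, Sox5 in 9 and Sox17 in 7, while Sox18 was below 0 in 10 and Sox7 in 9. These counts say little of stability, since 39 of the 99 values equal the reported one (6 of 11 each for the single-probe genes Sox2, Sox4 and Sox18), and the scanner log ratio and the series matrix come from the same processed signals. The 2-fold split of the array moved as well, from 398 lower and 122 higher genes to 302 and 724 with median centring, and to 1143 and 593 with the log ratio that the scanner software wrote.

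**Figure D4:**
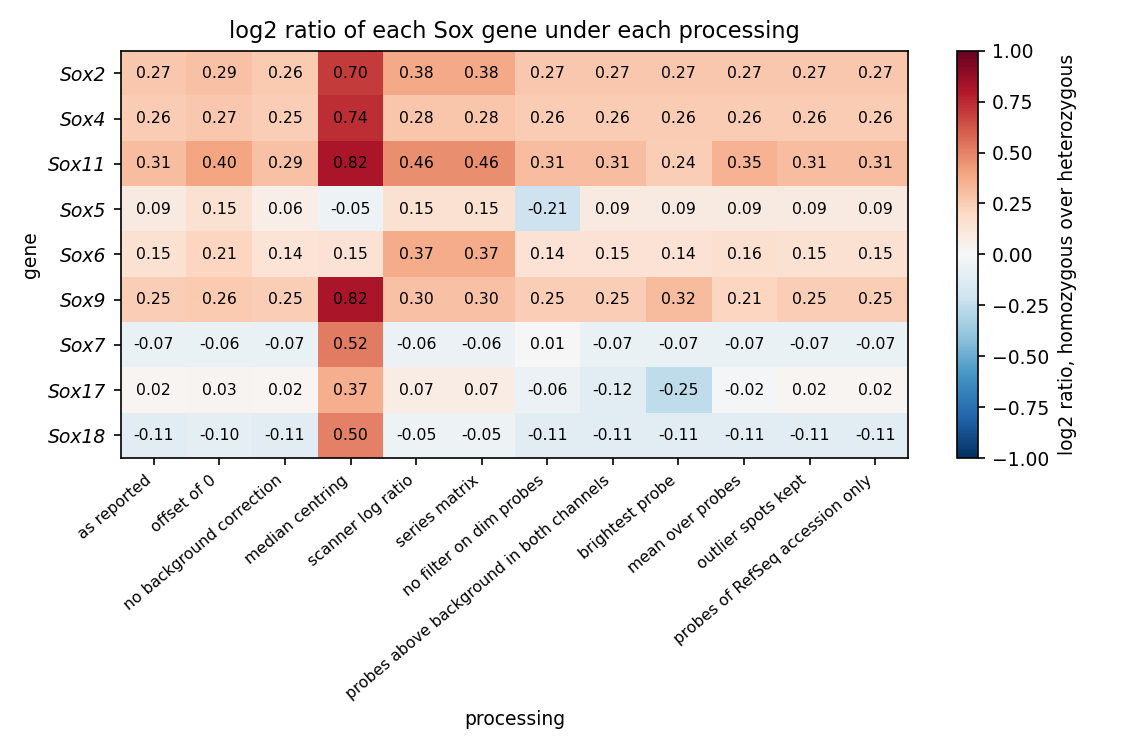
Log2 ratio of each Sox gene (rows) as reported and under 11 other ways of processing (columns), with the value printed in each cell and red for higher in the homozygous channel. The column for median centring stands out, with Sox9 and Sox11 at 0.82, while Sox5 changes side there and without the filter on dim probes (−0.21).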

How the data were processed

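Lung lobe RNA of 1 heterozygous (Cy3) and 1 homozygous (Cy5) embryo, 100 ng each, was amplified in 1 round and hybridised to 1 array, per the labels' protocols. The 2 deposited scanner files are identical and count as 1 measurement. They hold linear spot and background intensity and, per the file headers, a processed intensity and a log10 ratio of red over green after the scanner software had removed background and balanced the dyes. The software was Agilent Feature Extraction 9.5.3.1, per the submitters' processing notes. The deposited series matrix holds processed intensity times 1.68 with a floor of 15, as found by comparison with the scanner values. Its medians were 139.8 (heterozygous) and 138.8 (homozygous), and the reason for the factor is unknown.

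Mean signals were corrected by normexp (offset 50) and loess-normalized within the array in limma 3.58.1 (R 4.3.3, with data.table at version 1.17.8), with control spots at weight 0. The 169 outlier spots were left out. The offset pulls the ratios of dim probes towards 0. Probes stayed in if over 0.5 of their spots were well above background in either channel, and gene values are medians of those probes. Of 43379 spots, 69.0% were well above background in the heterozygous and 75.6% in the homozygous channel. The number of arrays limits the precision. Genes were named through accessions (24375 of 41174 probes), symbols (6301) or synonyms (2426) in a RefSeq table of assembly GRCm38.p6, and 8072 probes kept the name in the file. Coordinates and probe sequences are those of the files, on mm8, which give no exon or UTR annotation. The tables and plots were made in Python 3.11.15 (pandas 2.3.3, numpy 2.4.6, matplotlib 3.10.9). The steps were tested on simulated data with changes larger than any member ratio, which does not test differences as small as those of the members.

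The 9 members, the lists and the alternatives were chosen with earlier results of these data known. Named genes are the members, the other Sox genes, Foxj1 and the 2 lowest and 2 highest genes of each list measured in both channels, with exceptions stated. Some list genes that this rule would name are not reported here. No genes of like pattern are named, since 2 channels give no pattern. With 1 sample per group no test was run.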

Additional observations from a re-analysis of the deposited data

How the results depend on the processing

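Of 99 member values recomputed under 11 alternatives, 90 moved by less than the scanner error, of which 39 equalled the reported value because the alternative left the gene's probes or their summary as they were. The other 9 did not, and the cause was not tested. With median centring Sox2 was 0.70, Sox4 0.74, Sox7 0.52, Sox9 0.82, Sox11 0.82, Sox17 0.37 and Sox18 0.50, the member median 0.52, and 4 members were 1.5-fold higher. Sox5 was −0.21 without the filter on dim probes, and Sox17 was −0.25 with its brightest probe. Genes at least 2-fold lower numbered 773 with an offset of 0, 1143 with the scanner log ratio and 1139 with the series matrix. At least 2-fold higher were 221 with an offset of 0, 724 with median centring, 593 with the scanner log ratio and 457 with the series matrix. At 1.5-fold the lower genes numbered 2013 with an offset of 0 and 2349 with the scanner log ratio or the series matrix. The higher ones numbered 898 with an offset of 0, 4807 with median centring, 1824 with the scanner log ratio and 1742 with the series matrix. Of 90 list medians, 81 moved by less than the median scanner error of the list's genes. In none of the 11 alternatives did a member reach 2-fold. The restriction to probes of RefSeq accession was chosen after seeing the data. Dim probes limit Sox5 and Sox6, whose errors are largest. No paired analysis was possible because each genotype has 1 lung.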
